A study of Phyllostachys edulis with 2 samples.

Results

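Genes of vesicle traffic, and of the small GTPases that direct it, were examined in the rhizome buds of Moso bamboo. They were found by searching the protein description of every transcript for the names of Rab, Rop and ADP-ribosylation factor (ARF) GTPases, SNAREs and syntaxins, clathrin, coatomer, vesicle and vacuolar sorting proteins, exocyst, dynamin and protein transport proteins. The search gave 120 of 148492 transcripts and 41 of 85391 loci, and the reads of the matching transcripts were summed for each locus. Dynamin was named in no description (0 transcripts).

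Wild-type Moso bamboo (Phyllostachys edulis) spreads by underground rhizomes, and lateral buds were collected from different rhizomes and sorted by bud length into a germination and an early shoot stage. The paper describes several samples from different rhizomes for each stage and RNA drawn from pooled bud samples. How many buds went into a library is not given in the sources used here. Each stage is 1 library, with 4481221 and 7878826 reads counted on the assembled transcripts, so that none of the differences described here could be checked against a replicate and p-values are not given.

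In plant cells, coat proteins bend membranes into vesicles, small GTPases mark each compartment and recruit the machinery that acts there, and SNAREs on the vesicle and on its target pull both membranes together. COPI vesicles return material to the endoplasmic reticulum, clathrin works at the plasma membrane and the trans-Golgi network, and Rab GTPases switch between an inactive form bound to GDP and an active form bound to GTP. Growing and dividing cells depend on this traffic, because wall polysaccharides, wall enzymes and the membrane of the new cell plate are delivered by vesicles.

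Where a pair of read counts or RPKM values is given, the first is that of germination. A log2 ratio compares early shoot with germination after the early shoot reads had been divided by 1.8, the median ratio of the transcripts, so that values above 0 mean more reads in early shoot. Each ratio is followed by its exact 95% Clopper-Pearson interval, which covers counting error only and not the variation between buds. The G-fold value is a cautious form of the ratio: the bound nearest 0 of its posterior distribution at a quantile of 0.01, set to 0 if the lower and the upper bound have different signs. Whether a read shared by transcripts of a locus was repeated in their counts is not known. If so, intervals of summed reads would be too narrow and their G-fold values not cautious enough. A locus was called when its G-fold value was beyond 1.0 in either direction and its RPKM, summed over the matching transcripts, was above 1.0 in both libraries. RPKM is the read count divided by the transcript length and by the size of the library.

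Of the 41 loci, 39 passed the RPKM cutoff, and 30 had at least 100 reads over the 2 libraries. The 2 loci that did not pass were Locus_34521, matched to coatomer alpha, with 4 and 1 reads, and Locus_72288, matched to a vacuolar protein sorting-associated protein, with 0 and 5 reads. Neither is deep enough to compare, as a count of 0 allows up to 3 reads. The loci held between 5 and 8616 reads, with a median of 277. Together they took 0.242% of the reads in germination and 0.210% in early shoot, or 10840 and 16510 reads (log2 ratio -0.24, interval from -0.28 to -0.21). In such libraries fewer cells of a type cannot be told apart from less RNA per cell. The direction of this sum rested on the clathrin heavy chain. Without that locus the other loci had 6463 and 12271 reads (log2 ratio 0.08, from 0.03 to 0.12), in the opposite direction.

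The loci lay on both sides of 0. Of the 39 loci above the cutoff, 11 (28.2%) had G-fold values below 0 and 12 (30.8%) above 0, while among all 68834 loci above the cutoff, which have a median of 17 reads, 12.7% lay below 0 and 10.1% above it. In germination 2 loci (5.13%) were called, a Rab5 locus and an RGP1 locus, compared with 3.7% of all loci, and in early shoot 2 (5.13%) were called, of which a syntaxin-related locus is described here, compared with 1.39%. The closer comparison is with loci of similar depth. Of the 30 trafficking loci with at least 100 reads, 11 (36.7%) lay below 0 and 11 (36.7%) above 0, against 31.6% and 33.6% of the 9151 loci with a protein match and as many reads. The calls made up 6.67% of these 30 loci in each direction, against 9.27% in germination and 4.88% in early shoot. After 1 read had been added to both counts, the median log2 ratio was 0.13 for these 30 loci and 0.04 for the 9151. As a group, the trafficking genes were thus spread around 0 in much the same way as other genes of their depth, and the differences lay between individual members.

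**Figure D1:**
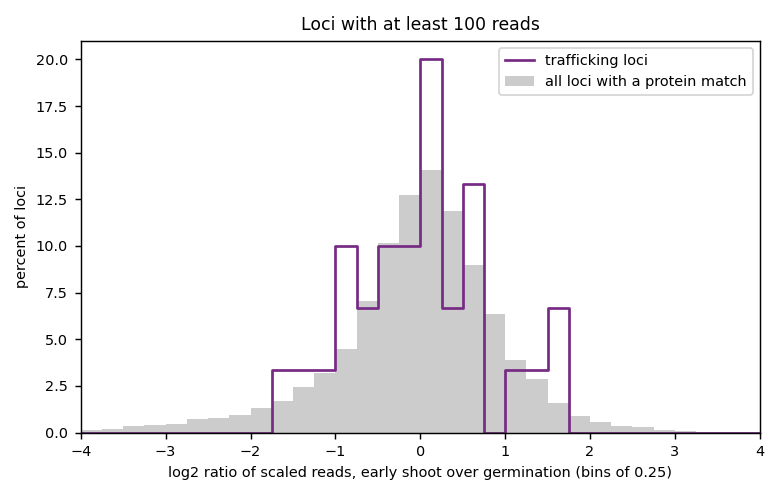
Histogram of log2 ratios (early shoot over germination, after adding 1 read to both counts) in bins of 0.25 for loci with at least 100 reads. The line gives the 30 trafficking loci and the grey bars the 9151 loci with a protein match, each as percent of its loci, and the axis is limited to values between -4 and 4. Both are centred near 0, with medians of 0.13 and 0.04.

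The level of each gene, compared per length as summed RPKM, followed a different order in each stage. In germination the clathrin heavy chain ranked 1 (RPKM 171), followed by vesicle-associated membrane protein 712 (118), Rab5 (96.4), Rab2A (86.0) and Rab7 (66.6). In early shoot Rab2A (139.6) and vesicle-associated membrane protein 712 (138) ranked 1 and 2, followed by the clathrin heavy chain (94.4) and the Rac-like GTP-binding protein 5 (81.9). Rab5 moved from rank 3 to rank 13 and RGP1 from rank 9 to rank 20. How reads were divided among the transcripts of a locus is not known, and sums of RPKM depend on it.

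**Figure D2:**
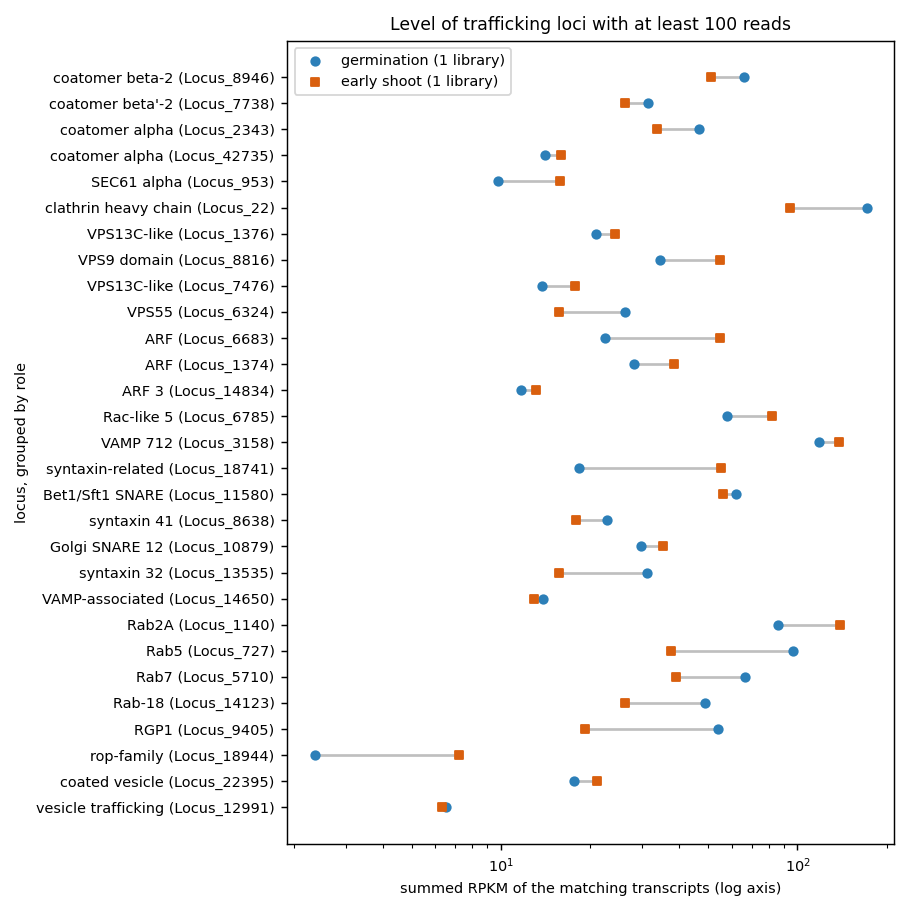
Summed RPKM of the matching transcripts (log axis) of 29 of the 30 trafficking loci with at least 100 reads, 1 row per locus and grouped by role. Circles give the germination library and squares the early shoot library. The largest gaps with the circle on the right belong to RGP1 (53.9 and 19.2) and Rab5 (96.4 and 37.4).

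The clathrin heavy chain, the leg of the triskelion that makes up the clathrin lattice, held the most reads of all members. Its locus (Locus_22) had 4377 and 4239 reads, so that the deeper library held fewer reads. The log2 ratio was -0.89 (interval from -0.96 to -0.83), a level 1.86-fold lower in early shoot, and the G-fold value was -0.82, short of the threshold. Its 7 transcripts, from 5574 to 5725 bp long, had between 601 and 690 reads each in germination and between 577 and 672 in early shoot. All 7 lay between -0.98 and -0.83. The 4 of them with the same length of 5721 bp differed little, with 604 to 638 reads in germination and 577 to 601 in early shoot. The variance of these counts over their mean was 0.37 and 0.21, below the value of 1 that independent counts give on average. Whether reads were repeated or split among these transcripts was not tested. Their agreement is therefore not independent evidence, and the interval of the locus may be too narrow.

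A locus matched to an adaptin N-terminal region family protein, from a list of further trafficking proteins outside the search, lay on the same side as the clathrin heavy chain. Adaptins are large subunits of adaptor complexes, some of which link clathrin to its cargo. The description does not name the complex of this protein. The locus (Locus_9057) had 367 and 222 reads, a log2 ratio of -1.57 (from -1.82 to -1.33), the G-fold value being -1.29, and was called in germination. The locus matched to AP-1 complex subunit gamma-1 (Locus_76357), with 9 and 30 reads, had a log2 ratio of 0.89, the interval running from -0.22 to 2.15, and a direction was not detectable at this depth.

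The COPI coat was represented by 6 loci matched to the coatomer subunits alpha, beta and beta'. The 3 deepest were lower in early shoot. The beta-2 subunit (Locus_8946) had 720 and 954 reads (log2 ratio -0.44, from -0.58 to -0.30). The beta'-2 subunit (Locus_7738) had 478 and 708 reads (log2 ratio -0.28, from -0.45 to -0.11). The alpha subunit (Locus_2343) had 151 and 178 reads (log2 ratio -0.61, from -0.93 to -0.29). These were 13.3% of the reads of that locus, whose ratio over all transcripts was -0.47 (from -0.59 to -0.35). The subunits assemble into the same coat. On the matching transcripts their levels were 1.22-fold to 1.53-fold lower in early shoot, well below the threshold for a call. Another locus matched to the alpha subunit (Locus_42735), with 45 and 89 reads and a log2 ratio of 0.14, had an interval on both sides of 0 (from -0.40 to 0.69). The other 2 had 9 or fewer reads. With the same description on 4 loci, fragments of 1 gene cannot be told apart from copies of it. All COPI loci together had 1403 and 1934 reads (log2 ratio -0.38, from -0.48 to -0.28), and -0.33 without the beta-2 subunit.

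The search for protein transport proteins, the name used for COPII subunits, found no COPII coat subunit but 2 loci of the Sec61 translocon, the channel through which new proteins enter the endoplasmic reticulum. The SEC61 alpha transcript (Locus_953) had 36 and 102 reads (log2 ratio 0.65, from 0.09 to 1.25), with a G-fold value of 0.01. It held 2.98% of the reads of its locus. Over all 20 transcripts of the locus the log2 ratio was 0.23 (from 0.14 to 0.32). For the beta subunit (Locus_4786) 10 and 15 reads were too few to show a direction on the matching transcript, whereas the other transcript of that locus, with another description, had 52 and 36 reads (log2 ratio -1.38, from -2.03 to -0.74).

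The Rab GTPases lay on both sides of 0. RGP1 (Locus_9405), a Rab protein first described in rice, had 217 and 136 reads on a single transcript, with RPKM of 53.9 and 19.2. It was 2.87-fold lower in early shoot, with a log2 ratio of -1.52 (from -1.84 to -1.21), the G-fold value being -1.16, and it was called under each of the scalings compared. Rab5, which marks early and late endosomes, had 373 and 275 reads on the matching transcripts of Locus_727 and was 2.44-fold lower in early shoot. The log2 ratio was -1.29 (from -1.52 to -1.06) and the G-fold value -1.02. This call is marginal, as the G-fold value was between -0.99 and -0.94 with the 4 other scalings.

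Rab7 and Rab-18 were also lower in early shoot. Rab7, which acts at the late endosome and the vacuole, had 196 and 211 reads at Locus_5710 (log2 ratio -0.74, from -1.03 to -0.45). These were 23.2% of the reads of the locus, whose ratio over all transcripts was -0.37 (from -0.50 to -0.23). Another Rab7 locus (Locus_13391), with 31 and 43 reads, had a log2 ratio of -0.38 (from -1.08 to 0.34). Its matching transcripts held 31.1% of the reads, and over all transcripts the ratio was -0.70 (from -1.08 to -0.32). Rab-18 (Locus_14123), known from animals at the endoplasmic reticulum and lipid droplets, had 203 and 193 reads (log2 ratio -0.92, from -1.21 to -0.63), with 4 transcripts between -1.09 and -0.63.

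Rab2A and Rab1A had more reads in early shoot after scaling. Rab2A (Locus_1140), which acts between the endoplasmic reticulum and the Golgi apparatus, had 323 and 958 reads, with RPKM of 86.0 and 139.6. It was 1.65-fold higher in early shoot, with a log2 ratio of 0.72 (from 0.54 to 0.91), the G-fold value being 0.51. Rab1A (Locus_25382), which acts at the same step, had 9 and 45 reads (log2 ratio 1.47, from 0.42 to 2.69), and 0.97 over all transcripts of its locus. The remaining small loci, ric1 (26 and 40 reads), an unnumbered rab (16 and 25 reads) and a small GTP-binding domain protein (3 and 11 reads), had intervals on both sides of 0 on their matching transcripts. Those of ric1 (Locus_1732) and of the unnumbered rab (Locus_4955) held 5.87% and 7.99% of the reads of their loci. Over all transcripts the ric1 locus had a ratio of -0.26 (from -0.43 to -0.08) and the rab locus, with 255 and 258 reads, one of -0.83 (from -1.09 to -0.58), both intervals lying below 0. Of the 9 loci described as Rab proteins, a grouping made after the values were seen, 4 lay below 0, 2 above 0 and 3 at 0. Their reads together had a log2 ratio of -0.38 (from -0.48 to -0.28), which became -0.99 (from -1.12 to -0.87) without Rab2A. Both sums count matching transcripts only. With a rop-family locus and the small GTP-binding domain protein included, the sum was -0.33, and -0.10 when all transcripts of each locus were counted.

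The Rab5 locus was the largest by number of transcripts, with 30, and these differed in direction. Matches to Rab5 were given for 4 transcripts of 800 to 1475 bp. The transcript of 852 bp had 125 and 79 reads, and those of 800 bp had 116 and 56 reads and 89 and 65 reads. The transcript of 1475 bp, the longest of the matched ones, had 43 and 75 reads (log2 ratio -0.05, from -0.61 to 0.53). The 26 transcripts without a protein match had 235 and 651 reads, a log2 ratio of 0.62 (from 0.40 to 0.84), on the opposite side of the matched transcripts. Most of these reads lay on the 5 transcripts from 1215 to 1898 bp. They had 170 and 571 reads together, a log2 ratio of 0.90 (from 0.65 to 1.16), the G-fold value being 0.61, and each of the 5 was above 0, from 0.71 to 1.24 with no read added. The 21 shorter ones had 65 and 80 reads (log2 ratio -0.55, from -1.04 to -0.05). With the reads of all 30 transcripts summed, the log2 ratio of the locus was -0.24 (from -0.39 to -0.09). The lower level of Rab5 in early shoot was thus seen on its matched transcripts of 800 to 852 bp and not over the whole locus to the same degree. Whether the longer transcripts carry the same coding sequence is not known from the files.

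**Figure D3:**
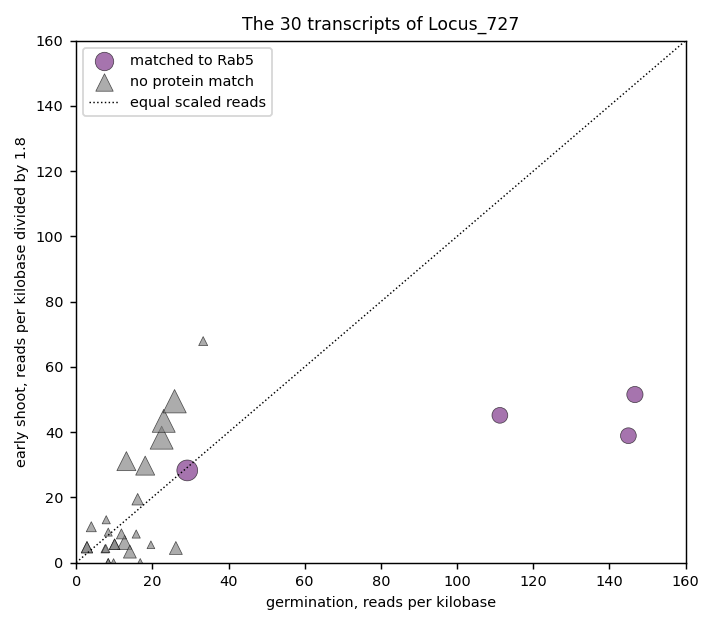
Reads per kilobase of the 30 transcripts of Locus_727 in germination (x axis) and early shoot (y axis, divided by the scaling factor of 1.8), with larger symbols for longer transcripts. Circles are the 4 transcripts matched to Rab5 and triangles the 26 without a match. Of the circles, 3 lie far below the dotted line of equal scaled reads, and the 5 large triangles lie above it.

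Rop GTPases, small GTPases of plants, organise actin and exocytosis at growing cell surfaces. Both loci with a Rop description were higher in early shoot. The Rac-like GTP-binding protein 5 (Locus_6785), matched to a rice protein, had 394 and 1020 reads, with RPKM of 57.8 and 81.9. Its log2 ratio was 0.52 (from 0.36 to 0.70), with a G-fold value of 0.33. Its 10 transcripts were not uniform, from -0.18 for the most abundant one, with 95 and 152 reads, to 1.56 for one with 12 and 68 reads. The rop-family GTPase (Locus_18944), whose match comes from a moss, had 17 and 91 reads on the matching transcript and was 2.97-fold higher in early shoot, with a log2 ratio of 1.57 (from 0.81 to 2.41), the G-fold value being 0.71. Its RPKM was 2.36 and 7.20, and its germination value was the lowest among the 30 loci with at least 100 reads. The other transcripts of this locus lay on the same side. The 7 with another description had 85 and 425 reads (log2 ratio 1.47, from 1.13 to 1.83), and the 2 without a match had 1.61 (from 0.96 to 2.31). Over all 10 transcripts the log2 ratio was 1.51 (from 1.23 to 1.8) and the G-fold value 1.19, past the threshold that the matching transcript alone did not reach.

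ARF GTPases start the formation of coats by recruiting coatomer or clathrin adaptors to the membrane. The 3 loci matched to an ARF by name had log2 ratios above 0, and in 2 of them the G-fold value was above 0. Of the loci matched to an unnumbered ARF, Locus_6683 had 100 and 395 reads (log2 ratio 1.13, from 0.81 to 1.47), and Locus_1374 had 117 and 279 reads (log2 ratio 0.41, from 0.09 to 0.73). Over all 12 transcripts of Locus_6683, of which 4 matched, the log2 ratio was 0.78 (from 0.59 to 0.97). ARF 3 (Locus_14834), with 84 and 167 reads, had a log2 ratio of 0.14, the interval running from -0.24 to 0.54.

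The only ARF regulator found, a GTPase-activating protein (Locus_4967) that switches ARF proteins off, was on the side of germination. Its matching transcript had 24 and 22 reads (log2 ratio -0.97, from -1.88 to -0.08), with a G-fold value of 0. Of the other transcripts of this locus, 5 with another description had 371 and 299 reads (log2 ratio -1.16, from -1.38 to -0.94), and the whole locus had -1.11 (from -1.32 to -0.90). The matching transcripts of the 3 ARF loci and the regulator together had 325 and 863 reads (log2 ratio 0.56, from 0.38 to 0.75). They held 5.97% of the reads at the regulator's locus and 39.4% at Locus_6683. The whole locus of the regulator had 420 and 351 reads, so this sum depends on which transcripts are counted. With all transcripts of these loci counted, the excess in early shoot would be much smaller.

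The syntaxins, SNAREs of the target membrane, lay on both sides of 0. A syntaxin-related locus (Locus_18741), whose match comes from wheat, had 112 and 594 reads, with RPKM of 18.3 and 55.3. It was 2.95-fold higher in early shoot, with a log2 ratio of 1.56 (from 1.27 to 1.86), the G-fold value being 1.22, the highest among the trafficking loci. Its 3 transcripts, all the transcripts of the locus, had 32 and 167, 43 and 221, and 37 and 206 reads, with ratios from 1.49 to 1.60, and the most abundant of them alone was not called (G-fold value 0.96). Syntaxin 32 (Locus_13535), known at the Golgi apparatus in Arabidopsis, had 130 and 112 reads and was 2.09-fold lower in early shoot, with a log2 ratio of -1.06 (from -1.44 to -0.69), the G-fold value being -0.63. Its 3 transcripts lay between -1.37 and -0.80. Syntaxin 41 (Locus_8638), known at the trans-Golgi network, had 173 and 239 reads (log2 ratio -0.38, from -0.67 to -0.09).

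The other loci of this role were close to 0. Vesicle-associated membrane protein 712 (Locus_3158), a vesicle SNARE of the kind found at the vacuole, had 441 and 908 reads (log2 ratio 0.19, from 0.03 to 0.36). Its 2 matching transcripts, both 835 bp long, had 220 and 221 reads in germination and 446 and 462 in early shoot. The Bet1/Sft1-related SNARE (Locus_11580), with 242 and 379 reads, had -0.20 (from -0.44 to 0.04), and Golgi SNARE 12 (Locus_10879), with 88 and 189 reads, had 0.25 (from -0.12 to 0.64). A protein that binds vesicle-associated membrane proteins (Locus_14650), which is not a SNARE itself, had 58 and 95 reads and -0.14 (from -0.62 to 0.36). The 7 loci together had 1244 and 2516 reads (log2 ratio 0.17, from 0.07 to 0.27), which hides the spread from -1.06 to 1.56 among them.

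**Figure D4:**
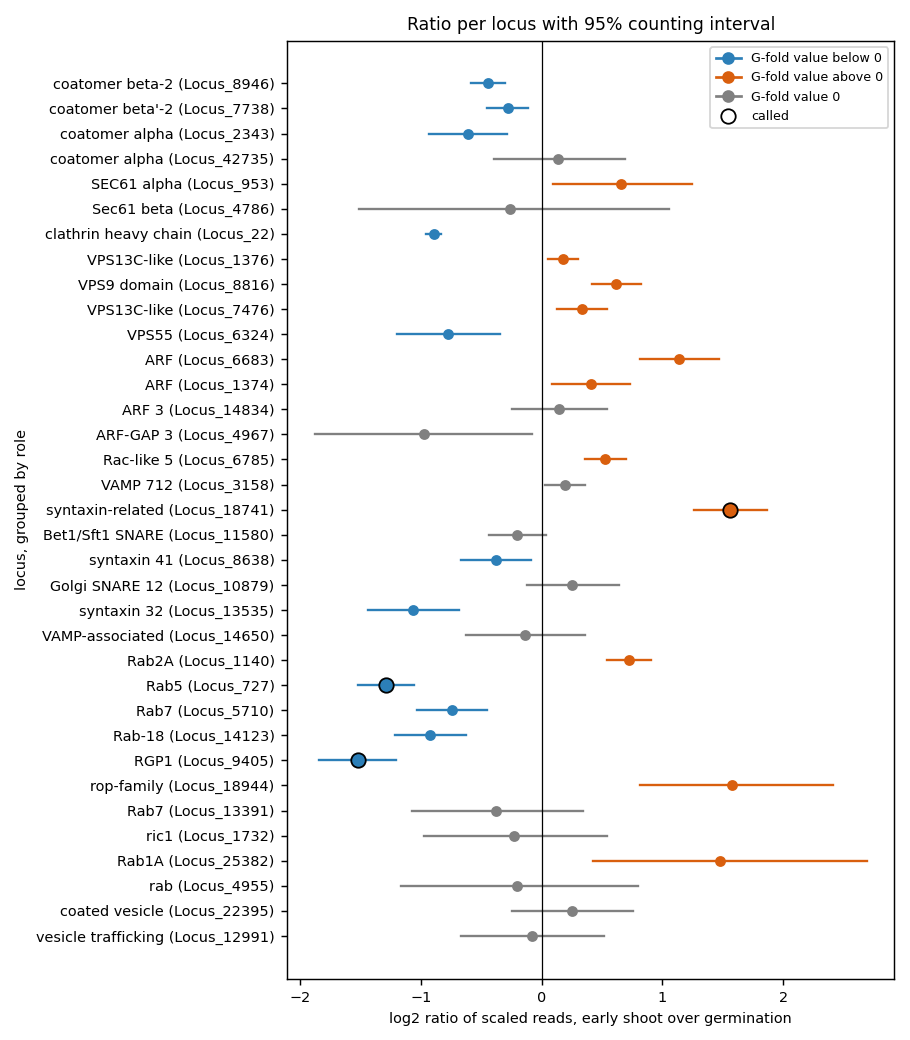
Log2 ratio of early shoot over germination with its 95% counting interval for 35 of the 36 trafficking loci with at least 20 reads over the 2 libraries, grouped by role. Large outlined symbols are called loci: the syntaxin-related locus (1.56) on the side of early shoot, Rab5 (-1.29) and RGP1 (-1.52) on that of germination.

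Among the proteins of vacuolar sorting, both loci matched to VPS13C, of a family that in yeast moves lipids between membranes, were slightly higher in early shoot. The transcript of 8502 bp at Locus_1376, the longest of the 120, had 797 and 1622 reads (log2 ratio 0.18, from 0.05 to 0.30), and that of 4415 bp at Locus_7476 had 272 and 616 reads and 0.33 (from 0.12 to 0.54). A protein with a vacuolar sorting protein 9 domain (Locus_8816), the domain that activates Rab5, had 272 and 752 reads and was 1.54-fold higher in early shoot. Its log2 ratio was 0.62 (from 0.42 to 0.82). The matched transcripts of Rab5 lay on the opposite side (-1.29), but the 26 unmatched transcripts of the Rab5 locus lay on the same side (0.62). That whole locus had -0.24. Vacuolar protein sorting 55 (Locus_6324), which in yeast acts in transport from the endosome to the vacuole, had 93 and 98 reads and was 1.71-fold lower, with a log2 ratio of -0.77 (from -1.20 to -0.35). Its 5 transcripts lay between -1.53 and -0.43. The exocyst, which tethers vesicles to the plasma membrane, was represented by a transcript of 237 bp matched to Sec15 (Locus_68184). It had 2 and 12 reads and an interval from -0.43 to 4.94. The loci of a coated vesicle membrane protein (51 and 109 reads) and of a vesicle trafficking protein (40 and 68 reads) had log2 ratios of 0.25 (from -0.24 to 0.76) and -0.08 (from -0.67 to 0.52).

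The transcripts of a locus mostly lay on the same side of 0. Of 18 loci with at least 3 matching transcripts, all transcripts lay below 0 in 7 loci and above 0 in 5, and the other 6 had transcripts on both sides, with 1 read added to each count. The widest spread was that of Rab5, from -1.89 to -0.06. Transcripts of 1 locus share sequence and are not independent measurements. The matching transcripts held at least 2.98% of the reads of their locus, with a median of 83.8%, and all of the reads in 16 loci. When the reads of all transcripts were used, none (0) of the 30 loci with at least 100 reads changed direction, and 1, Rab5, changed by more than 1.5-fold. This is a weak comparison, because the sum contains the matching reads and cannot differ where they are all the reads of a locus. Taken alone, the other transcripts could lie on the opposite side, as at the Rab5 locus (0.62 for those without a match).

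**Figure D5:**
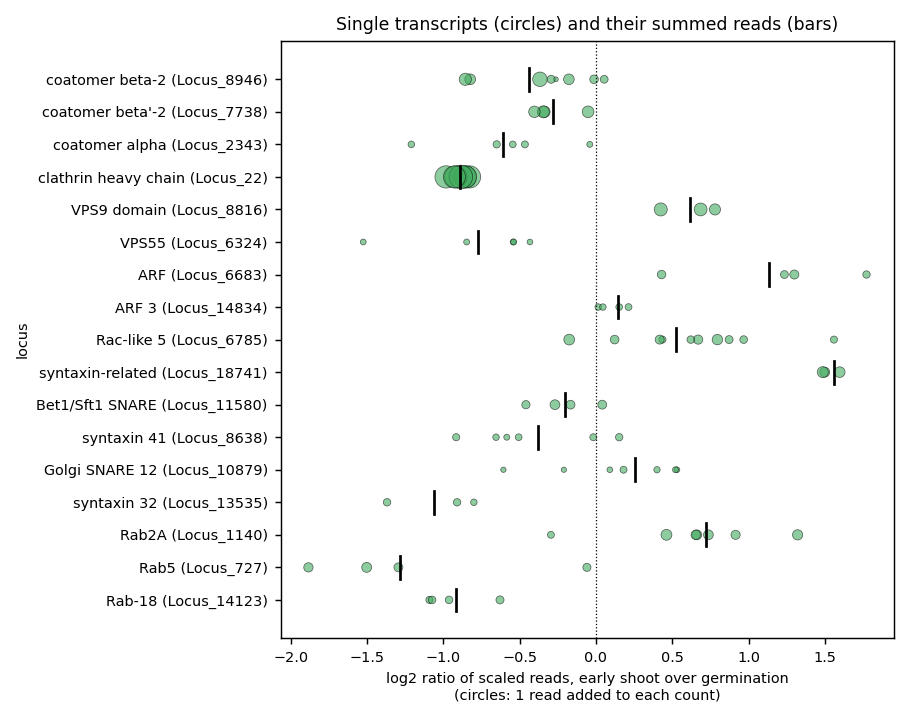
Log2 ratio of early shoot over germination for the matching transcripts of 17 of the 18 loci with at least 3 of them, with 1 read added to each count and larger circles for more reads. Black bars give the ratio of the summed reads. The 7 clathrin heavy chain transcripts lie close together (from -0.98 to -0.83), and those of Rac-like 5 spread from -0.18 to 1.56.

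Other genes of the pathway were taken from a list of trafficking names outside the search. It found 14 loci, of which 2 were set aside once their descriptions had been read, a cathepsin B-like protease found only through the letters of epsin, and kanadaptin. The cathepsin locus would have been a call in germination (1210 and 835 reads, G-fold value -1.23), and kanadaptin had 318 and 1167 reads with a G-fold value of 0.82. Of the 12 others, 3 had G-fold values below 0, 2 above 0 and 7 at 0, and the adaptin-family locus was the only call. With 1 of 12 loci called in germination, against 3.7% of all loci and 9.27% of those with a protein match and at least 100 reads, nothing can be read from this call about the list. Charged multivesicular body proteins, subunits of the ESCRT complex that sorts cargo into the late endosome, gave log2 ratios of -0.21 (from -0.36 to -0.05) for protein 4b, with 569 and 887 reads, and of 0.85 (from 0.54 to 1.17) for protein 6, with 110 and 357 reads. The plant synaptotagmins, membrane proteins of the cell cortex, had 798 and 1256 reads at Locus_1271 and 237 and 523 reads at Locus_11870, with log2 ratios of -0.19 (from -0.32 to -0.06) and 0.29 (from 0.07 to 0.52). The 2 subunits of the TRAPP tethering complex, with 71 and 129 reads and with 67 and 119 reads, had log2 ratios of 0.01 and -0.02.

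Markers of the tissue were read beside these values. Knotted homeobox genes, which mark shoot meristems, had 1144 and 1615 reads on 7 transcripts, a log2 ratio of -0.35. The 5 transcripts also named OSH are among these 7 and had 531 and 1077 reads and a ratio of 0.17. Of the cyclins of dividing cells, cyclin-B had 18 and 227 reads on 1 transcript (2.81) and cyclin-D 90 and 188 reads (0.21). The 6 loci of the whole meristem list had 1252 and 2030 reads and a ratio of -0.15. Transcripts of photosystem proteins were present in both libraries (2365 and 3749 reads). Markers of lignified tissue had 61 and 38 reads, a log2 ratio of -1.53, and root markers were named in no description. The part of these cell types and of cell division in the ratios above was not tested.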

How the data were processed

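RNA of rhizome lateral buds was sequenced with Illumina protocols as 1 library per stage. The authors deposited, for every assembled transcript, its length in bp, its raw read count and the RPKM they derived from both and from the library size. Recalculating RPKM from the deposited counts gave each value to within 0.0483. The submitters' processing notes name TopHat2 2.0.8b and Cufflinks 2.2.1. The paper describes uniquely mapped reads on a draft genome, gene models from Cufflinks and a search of predicted proteins against those of rice. The deposited tables hold transcript names in the form of a de novo assembly and protein matches from many species, so they may come from another route, whose assembler, counting program and protein search are not given in the sources used here. How reads shared by several transcripts were assigned in these tables is therefore not known.

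Counts of the matching transcripts were summed per locus with pandas 2.3.3, NumPy 2.4.6 and SciPy 1.17.1 under Python 3.11.15. The G-fold value was obtained from the quantiles of a beta posterior, 1 read being added to both counts, and is modelled on the program named in the paper, without that program. It was tried on simulated counts with counting error only, without variation between buds or reads shared among transcripts. The changes put in were larger than those of the called loci, so this trial does not cover calls near the threshold. The other scalings used the upper quartile, the library totals, the same totals after removal of the 10 most abundant transcripts, and TMM from edgeR 4.0.16 (R 4.3.3), with factors from 1.7 to 1.76 in place of 1.8, which raised every log2 ratio by 0.03 to 0.08. Log2 ratios of loci have no read added. Those of single transcripts printed as a range over a locus, other than the unmatched ones of the Rab5 locus, and the medians of lists, have 1 read added.

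The members, roles and lists were chosen with earlier results of these data known. Named loci were to be the 3 with the most reads of each role, every called locus, and the extremes of each role with 3 or more loci of at least 100 reads, 28 in all. The other loci named, the single transcripts and the split of the Rab5 locus by length were chosen after their values were seen. Values of 1 locus are not reported here, although the counts and the sum over all loci include it.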

Additional observations from a re-analysis of the deposited data

How the results depend on the processing

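In germination, 1 locus, RGP1, was called in place of 2 under each of the 4 other scalings and when all transcripts of a locus were summed, and 4 with the plain log2 ratio. In early shoot, 6 loci were called with the plain log2 ratio, 3 when all transcripts of a locus were summed, the added one being the rop-family locus (G-fold value 1.19), 1 when single transcripts were counted, and 0 when the most abundant matching transcript stood for its locus, where the G-fold value of the syntaxin-related locus was 0.96. The other alternatives, a quantile of 0.05, no RPKM cutoff, at least 100 reads and thinning of the early shoot library, kept both counts within 1.5 times. For the summed reads of all trafficking loci, alternatives added after the data were seen gave a log2 ratio of 0.077 without the clathrin heavy chain, -0.16 with all transcripts of each locus, -0.16 with the upper quartile and -0.21 without the 10 most abundant transcripts. The Rac-like 5 locus, the only one placed in the Rop role, reversed to -0.17 when its most abundant transcript stood for it. Of 273 further values of roles and named loci under the alternatives, 258 stayed within their counting interval, 13 moved beyond it and 2 reversed, both the Rac-like 5 value. The number that stayed is no measure of stability. Each of the 4 other scalings shifts all ratios by the same small amount, and a role of 1 locus repeats the value of that locus. Loci whose transcripts all match cannot change when all transcripts are summed. Of the 13, 5 moved with all transcripts summed: Rab5, Rab7, Locus_6683 and the sums of the ARF and Rab roles. Reversals were counted only where the interval of the reported value lay on 1 side of 0. Apart from these, the sum of the Sec61 loci went from 0.50 to -0.26 without SEC61 alpha, that of the coated vesicle and vesicle trafficking loci from 0.11 to -0.08 without the former, and the vesicle trafficking locus from -0.08 to 0 with the upper quartile. The causes were not tested.

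No paired analysis was possible because each stage has 1 library, which also leaves no replicate to leave out. Loci below 100 reads, 11 of the 41, mostly cannot show a change smaller than the threshold at this depth.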
